A study of Homo sapiens with 30 samples.

Results

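The regions described here are H3K27ac CUT&Tag peaks that appeared when the Diagenode C15410196 antibody was used at a dilution of 1/50 and that had no counterpart when it was used at 1/100. They were chosen by position alone. A peak of the 1/50 list counted as gained when no peak of the matched 1/100 list shared 1 bp with it. On chromosomes 1 to 22 and X this gave 8683 gained regions, of 587932 peaks in the 30 SEACR lists of the series. Of these, 3165 came from the pair of libraries treated with trichostatin A (TSA, a histone deacetylase inhibitor) and 5518 from the untreated pair.

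The 4 libraries were TSA at 1/50, TSA at 1/100, untreated at 1/50 and untreated at 1/100. All came from K562, an established human chronic myeloid leukaemia line grown in culture, with 500000 cells per experiment, SDS extraction of the DNA and 15 PCR cycles, per the labels. The labels give no TSA dose, and each condition is 1 library, so every difference between dilutions below is between single libraries, without a replicate check and without a test. The label K562 was not checked against marker genes, because no gene annotation of hg19, the build of the peak lists, was used here.

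CUT&Tag uses an antibody to tether the Tn5 transposase to a histone mark in permeabilised cells, where it cuts nearby DNA and adds sequencing adapters, so that fragments pile up at the mark. H3K27ac, acetylation of lysine 27 on histone H3, is deposited by p300 and CBP and marks active promoters and enhancers. H3K27me3 is methylation of the same lysine by EZH2 of the Polycomb repressive complex and marks silenced genes. One histone tail cannot carry both marks at once, which is why overlap with H3K27me3 serves as a check on the specificity of an H3K27ac antibody.

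In both pairs the 1/50 list was the larger one, but in different ways. In the TSA pair the list held 6301 peaks at 1/50 and 4462 at 1/100, and the covered length was 8.12 Mb at 1/50 and 5.79 Mb at 1/100. In the untreated pair the list held 11844 peaks at 1/50 and 7834 at 1/100, and the covered length was 31.9 Mb at 1/50 and 12.0 Mb at 1/100. Covered length was thus 1.40 times as large at 1/50 with TSA and 2.66 times as large without it.

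Gained regions made up 50.2% of the 1/50 list in the TSA pair and 46.6% in the untreated pair. With the longer list shortened to its strongest peaks, as many as the shorter one held, they numbered 1808 of 4462 with TSA and 2402 of 7834 untreated. In the MACS2 lists of the untreated pair they numbered 15266 of 21137. When 50% of the 1/50 peak had to be covered, they numbered 3672 of 6301 with TSA and 8059 of 11844 untreated. They took 3.30 Mb, or 40.6%, of the length covered at 1/50 with TSA, and 11.8 Mb, or 36.9%, without TSA. The remaining 1/50 peaks, called retained here, overlapped a 1/100 peak and numbered 3136 with TSA and 6326 untreated. The part of retained peaks that lay outside the 1/100 list added 1.34 Mb, or 16.5%, with TSA and 9.47 Mb, or 29.7%, untreated. Whole new regions therefore accounted for more added sequence than the wider outlines of peaks present at both dilutions, in both pairs.

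Some regions of the 1/100 lists were absent at 1/50. In the TSA pair 1294 peaks at 1/100, 29.0% of that list, had no peak at 1/50, and they covered 1.41 Mb. In the untreated pair 836 peaks at 1/100, 10.7% of the list, had none, and they covered 0.901 Mb. These are called lost regions here. There were 3165 gained against 1294 lost regions with TSA and 5518 gained against 836 lost regions untreated.

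**Figure D1:**
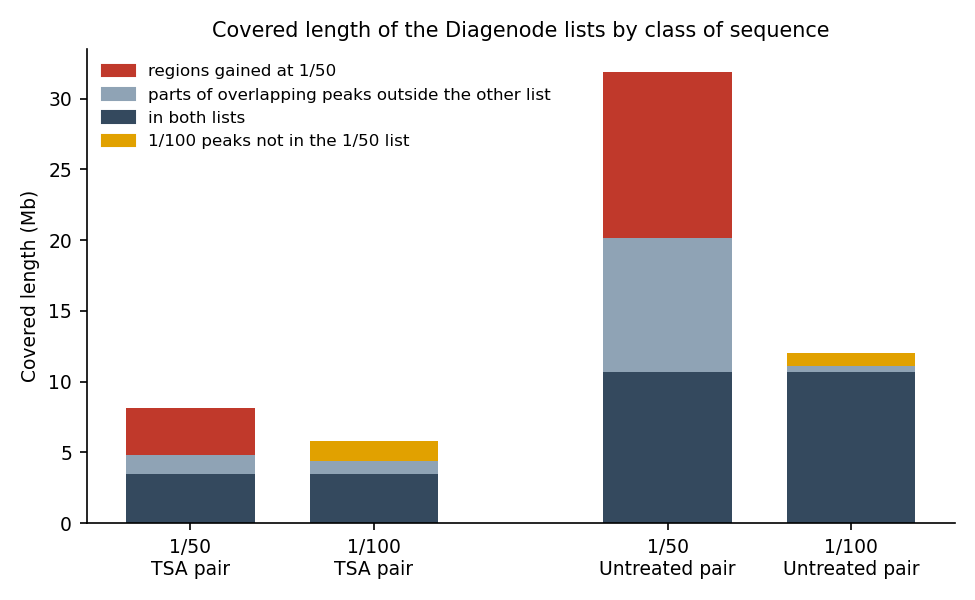
Covered length in Mb (vertical axis) of each Diagenode list, 1/50 left of 1/100 in each pair, split into gained regions, parts of overlapping peaks that lie outside the other list, sequence in both lists, and 1/100 peaks not in the 1/50 list. Gained regions are 3.30 Mb of 8.12 Mb at 1/50 with TSA and 11.8 Mb of 31.9 Mb at 1/50 untreated.

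The libraries of a pair differed in more than dilution, and these values stand beside every count above. In the SEACR lists the total signal of a peak is the sum of fragment coverage over its bases, and the maximum is its highest coverage. The mitochondrial sequence, left out of the counts, took 27.9% of peak signal at 1/50 and 6.53% at 1/100 with TSA, but 8.16% at 1/50 and 35.6% at 1/100 untreated. For the untreated libraries a relative depth could be read from the MACS2 lists, whose fold values fall on steps of 1 fragment over a constant background. The background coverage so obtained was 0.234 fragments per base at 1/50 and 0.103 at 1/100, a ratio of 2.28. Dilution and depth cannot be told apart in the untreated pair, and the depth of the TSA libraries is unknown.

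The smallest total signal admitted to a list moved with that depth. It was 5455 at 1/50 and 2442 at 1/100 in the untreated pair, a ratio of 2.23, and per unit of background coverage it was 23346 at 1/50 and 23814 at 1/100. Multiplied by the depth ratio, the 1/100 minimum became 5564, and 142 untreated gained regions, 2.57%, had a total below it. Since the 1/50 list holds nothing under 5455, this count could only be small. It does not show why the other gained regions had no 1/100 peak. In the TSA pair the minimum was 1820 at 1/50 and 2211 at 1/100. Since the relative depth of the TSA libraries is unknown, their totals and minima have no common scale.

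Gained regions sat in the weaker part of their own list. Ranked by total signal within the 1/50 list, where 100 is the strongest peak, the median gained region stood at percentile 34.5 with TSA and the median retained peak at 68.3. In the untreated pair the median gained region stood at 29.5 and the median retained peak at 69.1. Weak peaks fall below the minimum of another list more easily, so these ranks describe the regions and were not tested. The lost regions were weak in the 1/100 list as well, with a median percentile of 30.6 with TSA and 22.3 untreated.

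The share of peaks that were gained was lower in the stronger deciles of the 1/50 list, with 1 small exception with TSA (63.0% in decile 4 and 63.4% in decile 5). With TSA it was 76.9% in the weakest decile, 63.4% in decile 5, 34.4% in decile 8 and 7.61% in the strongest. Untreated it was 84.4% in the weakest decile, 49.5% in decile 5, 22.9% in decile 8 and 3.71% in the strongest. Thus 48 TSA gained regions and 44 untreated ones ranked in the strongest decile of their list.

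**Figure D2:**
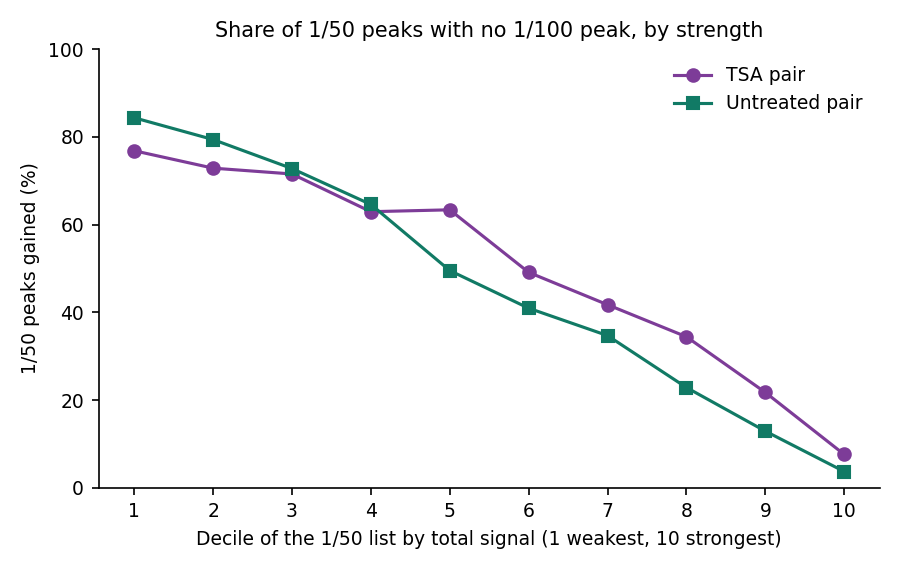
Share of 1/50 peaks with no 1/100 peak (vertical axis, percent) in each decile of the 1/50 list by total signal (horizontal axis, weakest to strongest), for the TSA pair and the untreated pair. The share is 76.9% in the weakest decile and 7.61% in the strongest with TSA, and 84.4% and 3.71% untreated.

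Coverage within gained regions was low in absolute terms. The median gained region reached a maximum of 6 fragments with TSA and the median retained peak 7. Untreated, the median gained region reached 11 fragments, against 17 in retained peaks. Gained regions held 28.4% of the peak signal of the TSA 1/50 list and 24.7% of that of the untreated list.

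Gained regions were narrower than retained peaks in both pairs when 1 shared bp made a peak retained. When 50% of the 1/50 peak had to be covered, the untreated difference was gone (log2 ratio of median widths -0.01471, interval -0.02826 to 0.003812), and with TSA the ratio was -0.29. That rule counts wide retained peaks as gained, so it acts on this ratio by construction. With TSA the median width was 968 bp (95% interval of the median 951 to 983) in gained regions and 1265 bp (1247 to 1290) in retained peaks. Untreated it was 1950 bp (1932 to 1972) in gained regions and 2659 bp (2623 to 2695) in retained peaks. The lost regions had median widths of 1038 bp with TSA and 1056 bp untreated. With TSA gained and lost regions thus differed little in width, and untreated gained regions were wider than the lost ones.

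The distributions of width overlapped broadly. The middle 50% of TSA gained regions spanned 777 to 1195 bp, against 943 to 1806 bp for retained peaks. The middle 50% of untreated gained regions spanned 1557 to 2480 bp, against 1966 to 3741 bp for retained peaks. Very wide regions were mainly retained, as 1 TSA gained region and 40 TSA retained peaks exceeded 5000 bp. Untreated, 81 gained regions and 742 retained peaks did.

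**Figure D3:**
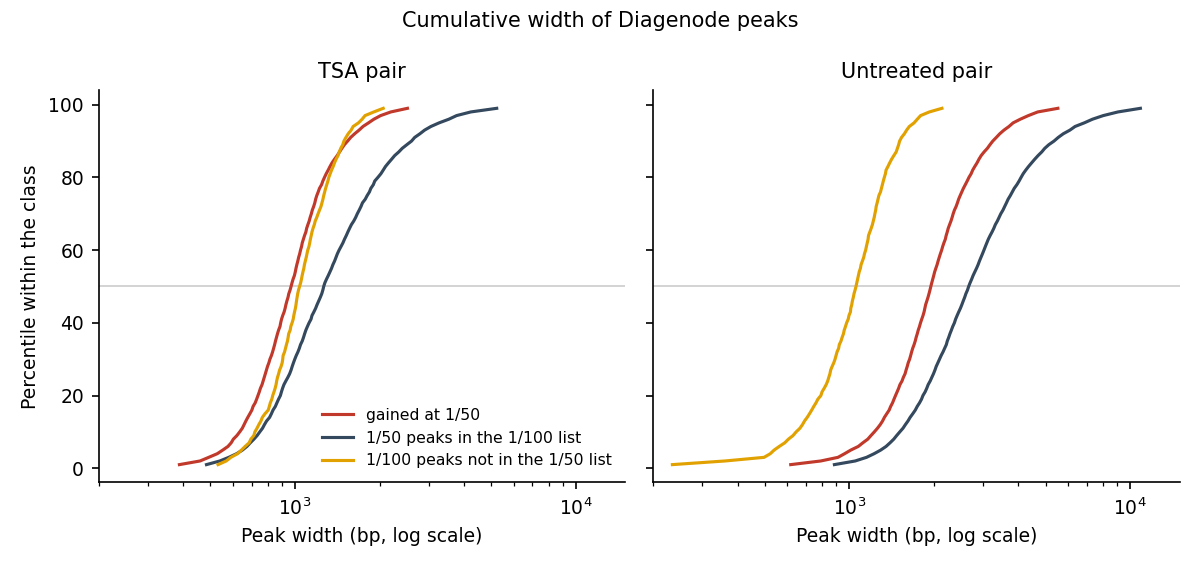
Cumulative distribution of peak width (horizontal axis, bp, log scale; vertical axis, percentile within the class) for gained regions, retained 1/50 peaks and lost 1/100 peaks, TSA pair on the left and untreated pair on the right. The gained curve lies left of the retained curve in both panels, and only in the untreated panel does it lie clearly right of the lost curve.

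Within quintiles of total signal the difference in width was small or turned round. Total signal is summed over the width of a peak, so this split fixes much of the width and is a description only. In the weakest quintile of the TSA list the median width was 808 bp in gained regions and 799.5 bp in retained peaks, and in the strongest quintile 1936 bp in gained and 2076 bp in retained ones. In the untreated list gained regions were the wider ones in every quintile, with 1601 bp in gained and 1559 bp in retained peaks of the weakest quintile. In the fourth quintile the widths were 3071 bp in gained and 2721 bp in retained peaks.

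Peaks present at both dilutions differed more in width in the untreated pair. Among the 5750 untreated peaks that matched 1 peak at each dilution, the median width was 2537 bp at 1/50 and 1380 bp at 1/100, and 93.8% were wider at 1/50. Among 2729 such TSA peaks the median width was 1258 bp at 1/50 and 1182 bp at 1/100, and 54.4% were wider at 1/50. Maximum coverage of the untreated peaks was 1.10 log2 units higher at 1/50 at the median (SD 0.56 over peaks), and less the depth ratio of 1.19 log2 units the difference was -0.09. Their total signal was 1.71 log2 units higher (SD 0.67 over peaks), or 0.52 less the depth ratio. Less the depth ratio, the matched untreated peaks were thus no taller at 1/50, and no depth-adjusted width was computed.

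Some peaks at either dilution spanned several peaks of the other, and the part of widening in this was not tested. At 1/50, 147 retained TSA peaks and 556 retained untreated peaks covered 2 or more separate 1/100 peaks. The reverse, a 1/100 peak spanning 2 or more 1/50 peaks, occurred 141 times with TSA and 14 times untreated. The untreated peak at chr16:85584337-85609388, 25052 bp wide, covered 6 peaks of the 1/100 list and was found in all 25 H3K27ac lists.

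By the rule no gained region touched a 1/100 peak, and most lay more than 5 kb from one. The median distance to the nearest 1/100 peak was 57.1 kb with TSA and 45.7 kb untreated. Within 5 kb of a 1/100 peak lay 681 TSA gained regions, 21.5%, and 807 untreated ones, 14.6%. At the limit of the rule, 32 TSA and 11 untreated gained regions lay within 100 bp of a 1/100 peak, with median rank percentiles of 45.2 and 46.2. Just inside the other class, 41 TSA and 9 untreated retained peaks overlapped the 1/100 list by under 100 bp, with median ranks of 41.8 and 31.2.

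The gained share varied along the chromosomes. With TSA it ranged from 39.0% of 159 peaks on chromosome 22 to 77.5% of 129 peaks on chromosome X, with a median of 51.1% over 23 chromosomes. Untreated it ranged from 32.3% of 167 peaks on chromosome 21 to 57.5% of 313 peaks on chromosome X, with a median of 47.7%. Chromosome X had the highest share in both pairs.

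Overlap with H3K27me3 was measured against the CST9733 library (1/100, untreated, SDS, 15 cycles), whose list held 106997 peaks over 149 Mb. Gained regions overlapped it less often than retained peaks. With TSA 201 gained regions, 6.35% (95% Wilson interval 5.55 to 7.25), overlapped H3K27me3, against 303 retained peaks, 9.66% (8.68 to 10.8). Untreated, 202 gained regions, 3.66% (3.20 to 4.19), overlapped it, against 545 retained peaks, 8.62% (7.95 to 9.33). Over all 1/50 peaks the share was 8% with TSA and 6.31% untreated, so the gained regions lay below their own list in both pairs. The intervals of gained and retained did not overlap in either pair, and they cover counting error only. With at least 50% of a peak required inside H3K27me3 the intervals overlapped in the TSA pair, at 4.96% of gained (4.26 to 5.77) and 5.995% of retained peaks (5.22 to 6.88). Untreated they did not, at 1.85% of gained (1.53 to 2.24) and 3.16% of retained peaks (2.76 to 3.62). For the TSA pair the H3K27me3 list comes from untreated cells.

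Lost regions did not behave alike in the pairs. With TSA 85 of them, 6.57% (5.34 to 8.05), overlapped H3K27me3, within the interval of the gained regions. Untreated, 145 of 836 did, 17.3% (14.9 to 20.1), and 14.8% had at least 50% of their length inside H3K27me3 peaks. In untreated cells the regions absent at 1/50 thus overlapped H3K27me3 more often than those added, at 17.3% against 3.66%. Over all 1/100 peaks the share was 9.12% with TSA and 9.52% untreated.

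Within quintiles of total signal the pairs differed. With TSA the gained and retained shares overlapping H3K27me3 had overlapping intervals in every quintile, from 5.31% of gained and 4.11% of retained peaks in the weakest to 14.1% of gained and 16.5% of retained peaks in the strongest. Untreated, the gained share stayed between 3.27% and 5.08% in all 5 quintiles, while the retained share ranged from 6.76% to 11.5%, with no overlap of intervals in any quintile. In the weakest untreated quintile 3.92% of gained regions (3.14 to 4.88) and 8.16% of retained peaks (5.93 to 11.1) overlapped H3K27me3. With TSA the gained share lay above the retained share in the weaker 2 quintiles and below it in the stronger 3, with 6.63% of gained and 7.99% of retained peaks in the middle one. The difference between the pairs was not tested.

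**Figure D4:**
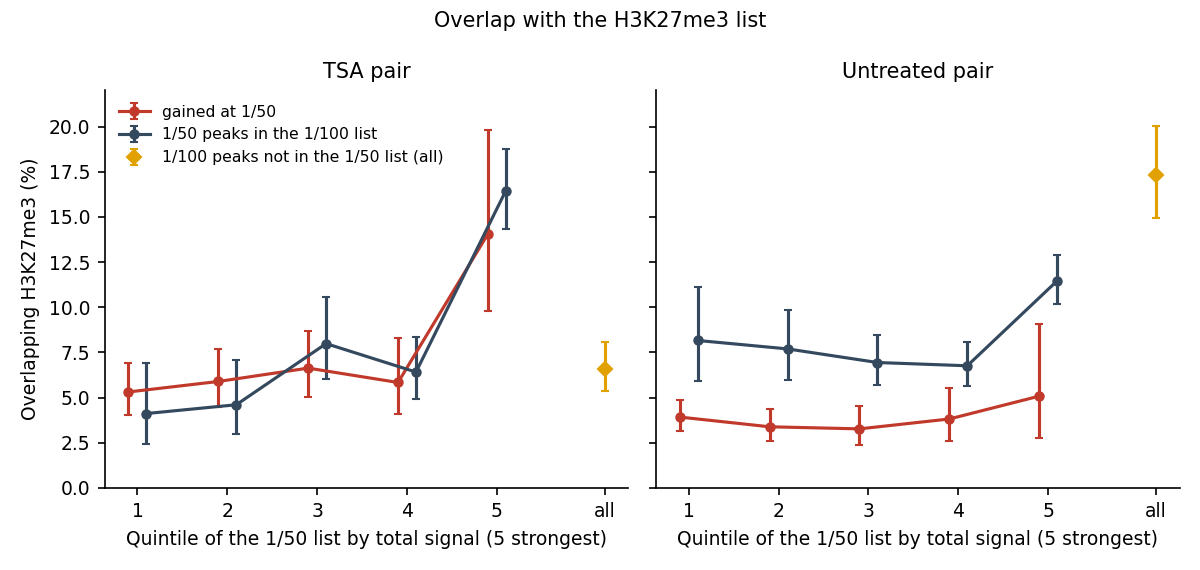
Share of regions overlapping an H3K27me3 peak (vertical axis, percent, with 95% Wilson intervals) by quintile of the 1/50 list by total signal, for gained regions and retained peaks, and for all lost 1/100 peaks, TSA pair on the left and untreated pair on the right. Untreated gained regions stay between 3.27% and 5.08% in every quintile, and untreated lost regions stand at 17.3%.

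The order of gained below retained was the same with each of the 5 SEACR lists of CST9733 and with its MACS2 list. The gained share ran from 2.56% to 11.6% with TSA and from 1.63% to 7.41% untreated, and the retained share from 4.18% to 26.8% with TSA and from 3.41% to 21.1% untreated. The highest values of gained and retained came from the column extraction at 11 cycles. That list was also the exception for the untreated lost regions, of which 14.2% overlapped it, below the 21.1% of retained peaks.

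Gained regions that overlapped H3K27me3 were short and comparatively tall. With TSA their median width was 854 bp, against 974.5 bp in the other gained regions, and their maximum coverage 8, against 6. Untreated, their median width was 1648 bp, against 1961 bp, and their maximum coverage 13, against 11. With TSA they were also the better shared ones: 91.0% were found with another H3K27ac antibody, against 78.9% of the other gained regions. Untreated this order was turned round, with 81.7% against 89.3%. Height and the order of sharing were not particular to gained regions. Retained peaks inside H3K27me3 had a maximum coverage of 11 against 7 outside it with TSA, and 23 against 16 untreated. Their sharing was 98.7% against 94.85% with TSA and 98.0% against 98.8% untreated. Their median widths were 1357 bp against 1260 bp with TSA and 2447 bp against 2679 bp untreated.

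Most gained regions were also found with a different H3K27ac antibody used at 1/100. In the TSA pair 2521 gained regions, 79.7% (78.2 to 81.0), overlapped a peak of ab4729 or ab177178 in TSA-treated cells, against 95.2% of retained peaks and 87.4% of all 1/50 peaks. In the untreated pair 4913 gained regions, 89.0% (88.2 to 89.8), overlapped a peak of ab4729, ab177178 or Active Motif 39133, against 98.8% of retained peaks and 94.2% of all 1/50 peaks. The gained regions lay below their list in both pairs, and the greater width of retained peaks moved with this; its part was not tested.

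The antibodies held unequal shares of the gained regions, in the order of the covered length of their lists and, untreated, not of their peak numbers. The ab4729 list with TSA, 22808 peaks over 25.3 Mb, held 71.8% of TSA gained regions and 88.7% of retained peaks. The ab177178 list with TSA, 7056 peaks over 6.33 Mb, held 38.3% of gained regions and 72.4% of retained peaks. Both lists thus recovered gained regions less often than retained ones.

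Untreated, the ab4729 list, 13394 peaks over 43.3 Mb, held 83.4% of gained regions and 97.3% of retained peaks. The ab177178 list, 16623 peaks over 27.5 Mb, held 43.9% of gained regions and 70.2% of retained peaks. The Active Motif list, 3024 peaks over 3.15 Mb, held 6.45% of gained regions and 30.4% of retained peaks. The ab4729 library had the highest background coverage of the 5 untreated H3K27ac libraries at 15 cycles, 0.341 fragments per base.

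Untreated lost regions were shared less. The ab4729 list held 53.8% of them and the ab177178 list 32.3%, and 68.4% (65.2 to 71.5) were in at least 1 of the other antibodies. With TSA 79.7% of gained regions (78.2 to 81.0) and 80.1% of lost ones (77.9 to 82.2) were so shared, with overlapping intervals. Over all untreated 1/100 peaks 95.4% were so shared. The asymmetry between gained and lost regions was thus visible in the untreated pair, in both the sharing with other antibodies and the overlap with H3K27me3. The 2 classes come from different lists, with median widths of 1950 bp in gained and 1056 bp in lost regions, and the part of width was not tested.

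Sharing with at least 1 other antibody mostly rose with strength and, in the fourth untreated quintile, reached the level of retained peaks. In the weakest untreated quintile 78.6% of gained regions and 90.2% of retained peaks were found with another antibody. In the fourth quintile the shares were 99.4% of gained and 99.5% of retained peaks. By antibody, only ab4729 was level there, with 98.4% of gained and 98.5% of retained peaks. The ab177178 list held 65.8% of gained and 72.0% of retained peaks, and the Active Motif list 10.85% and 26.4%. In the strongest untreated quintile the ab177178 list held 75.6% and 89.5%, and the Active Motif list 19.8% and 51.4%. With TSA the gap remained in each quintile, from 71.9% of gained and 86.4% of retained peaks in the weakest to 93.0% of gained and 99.3% of retained peaks in the strongest.

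**Figure D5:**
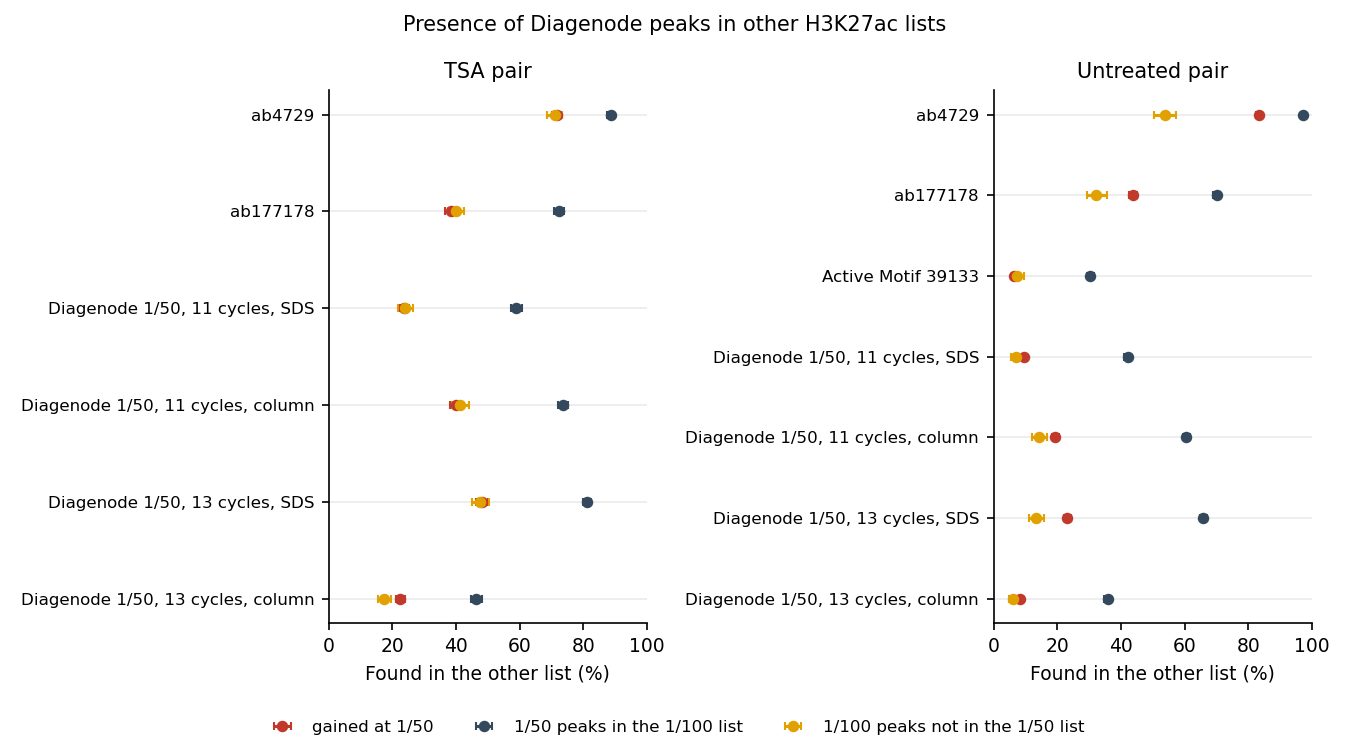
Share of gained regions, retained 1/50 peaks and lost 1/100 peaks found in other H3K27ac lists (horizontal axis, percent, with 95% Wilson intervals), by list (rows), TSA pair on the left with TSA lists of the other antibodies, untreated pair on the right. Retained peaks lie right of gained regions in every row, and gained lies clearly right of lost for ab4729 only in the untreated panel, at 83.4% and 53.8%.

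Regions found with several antibodies were stronger and wider. Untreated gained regions found with 0, 1, 2 or 3 other antibodies numbered 605, 2611, 2137 and 165. Their median rank percentiles were 12.3, 26.2, 39.9 and 56.5, in the same order, and their median widths 1666, 1882, 2160 and 2335 bp. Overlap with H3K27me3 was not graded in this way, at 6.12%, 2.80%, 3.42% and 11.5%.

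With TSA, gained regions found with 0, 1 or 2 other antibodies numbered 644, 1558 and 963. Their median rank percentiles were 25.0, 32.6 and 47.7 and their median widths 927.5, 950 and 1024 bp. Overlap with H3K27me3 was 2.80%, 3.15% and 13.9%. Of the 201 TSA gained regions overlapping H3K27me3, 134 were therefore in both other antibodies.

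The same antibody was also used at 1/50 in 4 untreated libraries of 11 or 13 cycles, whose lists were called after downsampling, per the labels. At least 1 of the 4 held 70.3% of TSA gained regions (68.7 to 71.9), against 94.2% of retained peaks and 82.2% of all 1/50 peaks. In the untreated pair at least 1 held 40.2% of gained regions, against 84.1% of retained peaks and 63.6% of all 1/50 peaks. All 4 held 163 TSA gained regions, 5.15%, and 35 untreated ones, 0.634%, against 17.4% and 10.2% of all 1/50 peaks. At 13 cycles with SDS the Diagenode list held 48.2% of TSA gained regions, against 47.3% for ab177178, 36.1% for ab4729 and 32.2% for Active Motif 39133. The same Diagenode list held 23.1% of untreated gained regions, against 30.1% for ab177178, 20.6% for ab4729 and 16.1% for Active Motif 39133.

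Over the 23 other H3K27ac lists of the series, a TSA gained region was found in 10 lists at the median and a TSA retained peak in 17. An untreated gained region was found in 5 lists at the median and an untreated retained peak in 13. The lost regions were found in 10 lists at the median with TSA and in 3 untreated. In none of the 23 were 26 TSA and 240 untreated gained regions. Over all 1/50 peaks the numbers were 28 of 6301 with TSA and 252 of 11844 untreated.

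TSA gained regions were mostly peaks of the untreated lists, though less often than their whole list. Of the 3165 TSA gained regions, 2791, or 88.2%, were peaks of the untreated 1/50 list, and 1788, or 56.5%, were peaks of the untreated 1/100 list. Only 295, or 9.32%, were in neither. Over all TSA 1/50 peaks the shares were 93.6% for the untreated 1/50 list and 71.1% for the untreated 1/100 list. TSA lost regions were in the untreated 1/50 list nearly as often, at 87.2%.

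Untreated gained regions were in the TSA lists less often than their whole list. Of 5518, 1034, or 18.7%, were in the TSA 1/50 list and 660, or 12.0%, in the TSA 1/100 list, while 4131, or 74.9%, were in neither. Over all untreated 1/50 peaks 41.6% were in the TSA 1/50 list and 31.6% in the TSA 1/100 list, and over retained peaks 61.5% and 48.7%. The TSA 1/50 list covers 8.12 Mb and the untreated one 31.9 Mb, so these shares are of lists of unequal size.

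Few regions were gained in both pairs. There were 797 such regions counted on the TSA list, 25.2% of its gained regions, and 762 counted on the untreated list, 13.8%. The 797 were among 2791 TSA gained regions that met an untreated 1/50 peak, and 46.6% of that whole untreated list was gained. The 762 were among 1034 untreated gained regions that met a TSA 1/50 peak, and 50.2% of that whole TSA list was gained. Agreement between the pairs was not tested. Overlap with H3K27me3 was 2.38% of them on the TSA list and 2.49% on the untreated list, in each case below the 6.35% and 3.66% of all gained regions of that list. Their median rank percentile was 29.3 on the TSA list and 49.0 on the untreated list, against 34.5 and 29.5 for all gained regions of those lists. With ab4729 in cells of the same treatment 63.5% of those on the TSA list and 93.3% of those on the untreated list were found.

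Of the 13091 merged regions of the 4 Diagenode lists, 2502 were in all 4 lists. The largest class, with 4131 regions, held peaks of the untreated 1/50 list alone. Regions of the TSA 1/50 list alone numbered 295.

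The untreated classes were also set beside the MACS2 lists, which come from the same 2 libraries of unequal depth and are no independent check. A MACS2 peak of the 1/50 library overlapped 90.5% of gained regions and 98.7% of retained peaks. A MACS2 peak of the 1/100 library overlapped 391 gained regions, 7.09% (6.44 to 7.79), against 75.9% of retained peaks. Thus 4614 gained regions, 83.6%, were in the MACS2 list at 1/50 and not in that at 1/100. The same count was not made for retained peaks or for all 1/50 peaks. No MACS2 list of the TSA libraries was analysed here.

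The strongest gained regions with TSA were atypical. The first, chr5:134258999-134264217, 5219 bp wide, had a maximum coverage of 104 at 1/50 with TSA and no peak at 1/100 with TSA, yet it reached 128 at 1/50 and 179 at 1/100 in untreated cells. It was also a peak with ab177178 with TSA, at 105, and with Active Motif 39133, at 73, and it did not overlap H3K27me3. The next ones by rank all overlapped H3K27me3. They lay at chr16:46403984-46407175, chr16:46390638-46392376, chr2:89852049-89854489 and chr16:46386206-46390245. The one on chromosome 2 had a maximum of 46 at 1/50 with TSA, no peak at 1/100, and 69 at 1/50 and 38 at 1/100 in untreated cells. Those on chromosome 16 had maxima of 20, 32 and 11 at 1/50 with TSA, in the order listed. All 5 were therefore peaks at both dilutions in untreated cells. Those overlapping H3K27me3 were in 21, 20, 22 and 16 H3K27ac lists in the order listed, their own included. Their maxima in the H3K27me3 library were 7, 7, 19 and 5. Whether they carry either mark, or are sequence that gives peaks with any antibody, was not tested. Their overlap with H3K27me3 is thus a description of position only.

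Another TSA gained region, chr2:149639295-149639426, was 132 bp wide with a maximum of 154 at 1/50 and no peak at 1/100. In untreated cells it reached 89 at 1/50 and 184 at 1/100, and with TSA 66 with ab4729 and 148 with ab177178. More ordinary in height was chr3:50646331-50650345, which reached 7 at 1/50 with TSA and 27 at 1/50 and 11 at 1/100 in untreated cells. That region was found in 23 of the 25 H3K27ac lists and outside H3K27me3.

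The strongest gained regions of the untreated pair looked different. At chr1:1279863-1288165, 8303 bp wide, the maximum was 59 at 1/50 untreated and there was no peak at 1/100. With TSA it reached 8 at 1/50 and 3 at 1/100, and the untreated ab4729 list gave 27. At chr19:13260360-13267593 the maximum was 24 at 1/50 untreated, with no peak at 1/100, and 34 with ab4729. At chr2:109201865-109213145, 11281 bp wide, it was 18 at 1/50, with no peak at 1/100, and 19 with ab4729. None of these 3 overlapped H3K27me3, and they were found in 20, 22 and 19 of the 25 H3K27ac lists.

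The fourth untreated region was an exception in shape and sharing. At chr3:124508161-124509333, 1173 bp wide, the maximum was 89 at 1/50 and there was no peak at 1/100. It was in 6 of the 25 H3K27ac lists, among them ab4729 at 86 and ab177178 at 9. The fifth, chr1:26603341-26616246, 12906 bp wide with a maximum of 12, lay 0.082 kb from a 1/100 peak and shows the other extreme of the rule, a wide region next to one already called.

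Strong untreated gained regions inside H3K27me3 were in fewer lists than the 3 strongest untreated ones above. At chr2:241915602-241920673 the maximum was 17 at 1/50, with no peak at 1/100, 13 with ab4729 and 6 in the H3K27me3 library. At chr4:187353547-187357145 it was 21 at 1/50, with no peak at 1/100 or with untreated ab4729, and 3 in the H3K27me3 library. They were found in 9 and 8 of the 25 H3K27ac lists, their own included. The median untreated gained region was in 5 of the 23 other lists.

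A gained region seen in no other H3K27ac list, chr2:241293830-241294439, 610 bp wide, reached 48 at 1/50 untreated and 15 in the H3K27me3 library. The strongest TSA region of this kind, chr18:9815357-9816150, was 794 bp wide, reached 9 and lay outside H3K27me3. Such regions have no second library behind them.

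The regions gained in both pairs were of moderate height. At chr22:41839967-41844900 the maxima at 1/50 were 8 with TSA and 18 untreated, with no 1/100 peak in either pair, and 21 with untreated ab4729. At chr3:49056387-49061151 they were 13 with TSA and 23 untreated, with no 1/100 peak, and 20 with untreated ab4729. At chrX:153280114-153287248 they were 7 with TSA and 18 untreated, and at chr6:34207684-34213202 they were 7 with TSA and 21 untreated, again with no 1/100 peak. Those 4 were found in 9 to 19 of the 25 H3K27ac lists, and none overlapped H3K27me3.

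The strongest lost regions of the untreated pair had little support elsewhere. At chr4:182160336-182162782 there was no peak at 1/50 and a maximum of 12 at 1/100, and the region was in 3 of the 25 H3K27ac lists. At chrX:473968-476344 there was no peak at 1/50 and a maximum of 12 at 1/100, with 24 for untreated ab4729, in 4 lists. With TSA the strongest lost region, chr6:30840003-30842018, had no peak at 1/50 and 10 at 1/100, and in untreated cells it reached 28 at 1/50 and 8 at 1/100. That region was in 20 of the 25 H3K27ac lists.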

How the data were processed

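CUT&Tag libraries of K562 cells were sequenced and processed by the authors on hg19. The submitters' processing notes name SEACR, MACS2, bedtools 2.25.0, SAMtools 1.3.1, Picard 2.6.0, Bowtie2 2.2.9, Trim Galore 0.6.6 and bcl2fastq, without role or order. Peaks were called per library after removal of duplicates, per the labels. The sources used here give neither the mode and threshold of SEACR nor the number of reads per library. The deposited SEACR lists give a total and a maximum coverage signal per peak. The deposited MACS2 lists of untreated 15-cycle libraries give per peak a fold ratio over background and, as −log10, a p-value and a q-value. Per the labels, the authors downsampled the libraries of 11 and 13 cycles before calling peaks.

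Only chromosomes 1 to 22 and X were used, and 1.24% to 3.39% of the 4 lists were left out. Overlap means at least 1 bp. Classes, ranks of total signal, widths, distances and overlaps were computed within and between lists. Shares carry 95% Wilson intervals with the peak as unit. They reflect counting error only: reads amplified by PCR lack molecular identifiers, and adjacent peaks depend on each other. MACS2 fold was read as (coverage + 1)/(background + 1). In both untreated Diagenode lists every fold fell within 0.000151 of a whole step, and where 1 MACS2 peak lay in 1 SEACR peak the recovered coverage equalled the SEACR maximum in 95.4% (7491 of 7852) at 1/50 and 96.2% (4769 of 4959) at 1/100.

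Each condition had 1 library, so no test was run. The sources used here do not say whether libraries came from separate cultures. Regions carry hg19 coordinates, 1-based, and the rule took the 3 or 5 strongest of each class in each pair, of which some are printed. The classes, lists and regions were chosen with earlier results of these data known. No hg19 gene annotation was used, so genes, marker genes and sequences were not analysed here. Overlap code was tested on simulated data, and bedtools 2.31.1 gave the same 3136 and 6326 retained peaks. Alternatives changed the sequences kept, overlap rule, list size, merging, caller, H3K27me3 list and rank measure. Scripts ran under Python 3.11.15 with scipy 1.17.1, pandas 2.3.3, numpy 2.4.6 and, for plots, matplotlib 3.10.9.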

Additional observations from a re-analysis of the deposited data

Results flagged for a closer look

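The lists of the TSA pair and of the untreated pair, as deposited, moved in opposite directions between 1/50 and 1/100 in 5 measures. With 1 library per condition these differences between pairs were not tested. As log2 ratios of 1/50 to 1/100, median peak width was -0.09 with TSA and 0.75 untreated. The least total signal in a list was -0.28 with TSA and 1.16 untreated. Median total signal was -0.15 with TSA and 1.49 untreated. Median maximum coverage was -0.22 with TSA and 1.00 untreated. The mitochondrial percent of peak signal was 2.10 with TSA and -2.12 untreated. The signal and coverage values were not adjusted for depth. The untreated depth ratio was 1.19 log2 units, and per unit of background coverage the untreated least total had a ratio of 0.98. With the depth of the TSA libraries unknown, whether the pairs would move in opposite directions in these measures at equal depth is unknown.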

How the results depend on the processing

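No paired analysis was possible because each condition has 1 library. Over 58 alternative values, 22 stayed within 1.5 times a count or within the interval of the value reported and 36 moved. No width ratio changed sign, but 1 became indistinguishable from 0. Where no construction is named, the cause was not tested. Values are given in the order count of gained regions (reported 3165 TSA, 5518 untreated), log2 ratio of median width of gained to retained (-0.39, -0.45), share overlapping H3K27me3 (6.35%, 3.66%), share in another antibody (79.7%, 89.0%) and median rank percentile (34.5, 29.5). Values not listed stayed within the limits just named, which for a count allow a change of up to 1.5 times.

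Keeping all sequences moved the TSA H3K27me3 share to 8.33%. Requiring 50% of the 1/50 peak to be covered gave 3672 TSA and 8059 untreated gained regions, both within 1.5 times the reported counts. Width ratios were then -0.29 TSA and -0.01471 untreated (interval -0.02826 to 0.003812, which spans 0). Antibody shares were 81.6% and 92.2%, and ranks 38.7 and 42.7. Wide retained peaks then count as gained, which acts on width ratios, shares and ranks by construction. The strongest 50% of each list left 1608 TSA and 2833 untreated gained regions, width ratios of -0.28 and -0.16, antibody shares of 90.2% and 99.1%, a TSA H3K27me3 share of 7.71% and an untreated rank of 33.8. Equal list sizes left 1808 and 2402 gained regions, width ratios of -0.32 and -0.22, antibody shares of 84.2% and 97.3%, a TSA H3K27me3 share of 7.30% and a TSA rank of 32.0. Both these settings reduce the lists by construction.

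Merging peaks within 1 kb gave width ratios of -0.52 TSA and -0.47 untreated. MACS2, untreated only, gave 15266 gained regions, a width ratio of -1.35 and an antibody share of 84.1%. With 50% of the gained region required inside the other list, the H3K27me3 shares were 4.96% TSA and 1.85% untreated and the antibody shares 68.3% and 87.1%. CST9733 at 13 cycles gave H3K27me3 shares of 2.91% and 2.14%. Ranking by maximum coverage gave medians of 42.9 and 30.9.

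The untreated 1/50 library was 2.28 times as deep as the 1/100 one by background coverage, the depth of the TSA libraries is unknown, and absence from a list is absence above that list's minimum signal.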

Other observations

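The region chr5:134258999-134264217, the strongest gained one with TSA, was a peak in all 12 lists of the series in which the mitochondrial sequence took more than 20% of peak signal, with maximum coverage from 62 to 179. It was a peak in 10 of the other 18 lists, with maxima from 10 to 128. The part of mitochondrial signal in this pattern was not tested.

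In the untreated pair the peak signal on chromosomes 1 to 22 and X, divided by background coverage, equalled the signal of 938 Mb of background sequence at 1/50 and 501 Mb at 1/100, a ratio of 1.87. The mitochondrial peak signal on the same scale was 86.1 Mb at 1/50 and 294 Mb at 1/100, a ratio of 0.293.

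Among untreated peaks matched one to one, the 472 that overlapped H3K27me3 widened by 0.53 log2 units at the median at 1/50, against 0.84 for the 5278 outside it. Their maximum coverage less the depth ratio was -0.31 log2 units, against -0.07 outside. With TSA the matched widths changed by 0.06 log2 units both inside H3K27me3 (249 peaks) and outside it (2480 peaks).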
